A study of Mus musculus with 14 samples.

Results

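Igf2bp3-RIP and m6A-RIP of the same cells, control mouse muscle stem cells (MuSCs), were set against each other gene by gene to see how far binding of the reader follows the m6A signal and which genes depart from it. The comparison used the 2 control Igf2bp3-RIP libraries and the 2 control m6A-RIP libraries, 4 of the 14 libraries of the series. Counts were summed over all rows of a gene in each table and scaled to counts per 1000000 counts of that table (CPM). Of 10279 genes with a row in either table, 3664 had rows in both and could be compared, 863 had Igf2bp3-RIP rows only and 5752 had m6A-RIP rows only. The shared genes held 90.2% and 93.0% of the counts of the Igf2bp3-RIP libraries but 55.6% and 55.7% of those of the m6A-RIP libraries.

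Control MuSCs are labelled as skeletal muscle stem cells of control genotype without treatment, kept in culture on Matrigel. Lin28a+ MuSCs, used here only as a second set of samples, were sorted from Lin28a-CreERT2; LSL-tdTomato mice, so they are cells marked through a Lin28a-driven Cre and are not defined by their RNA. Igf2bp3-RIP is RNA pulled down with an antibody against Igf2bp3 and is labelled as total RNA, as is the input. For m6A-RIP the label gives polyA RNA, pulled down with an antibody against m6A after fragmentation. The kind of RNA and the antibody therefore change together between the assays and cannot be told apart in any value below. The labels do not say whether the replicates are separate cultures or animals, so the p-values measure only the spread between these libraries, which may be technical.

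N6-methyladenosine (m6A) is placed on mRNA in the nucleus by a writer complex built around Mettl3 and Mettl14 and is removed by erasers such as Fto and Alkbh5. Reader proteins then recognise it. YTH-domain readers hold the methylated base directly, and several of them speed up decay of the RNA, whereas the Igf2bp family (Igf2bp1, Igf2bp2 and Igf2bp3) binds RNA through KH domains and is known for stabilising m6A-bearing transcripts and for holding them in cytoplasmic granules. Igf2bp3 is an oncofetal protein, abundant in embryonic tissues and low in most adult ones.

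The tables held 9215355 and 27592959 counts for the Igf2bp3-RIP replicates over 19465 peaks, and 31830638 and 21350962 for the m6A-RIP replicates over 18881 rows. Muscle stem cell identity was checked in the control input, where 9 of 10 markers were listed, summing to 8642 and 9041 CPM with Myod1 highest at 4625 CPM, and Chodl was not listed. Markers of fibro-adipogenic progenitors (3 of 7 listed), endothelium (1 of 6), macrophages (5 of 6) and pericytes or smooth muscle (4 of 6) summed to between 0.392 and 5.14 CPM per library and list, and the endothelial genes Cdh5, Kdr, Tek, Emcn and Cldn5 were not listed. The replicates of m6A-RIP lay closer together (r = 0.997 across 3664 genes) than those of Igf2bp3-RIP (r = 0.971), and 95.5% of the 3576 genes with at least 20 CPM in Igf2bp3-RIP were within 2-fold between replicates, against 99.9% of 5868 genes in m6A-RIP.

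Reader binding followed the m6A signal in part. Across the 3664 shared genes the Igf2bp3-RIP level rose with the m6A-RIP level, both as log2(CPM + 1), with Pearson's r = 0.463, Spearman's rho = 0.444 and a slope of 0.51, so that 21.5% of the variance between genes was shared. These are descriptions across genes, which are not replicates and which share the same 4 libraries. Each of the 4 pairings of 1 library with 1 library gave an r between 0.456 and 0.461, well under the r between replicates of an assay. Among the 436 genes with a single row in each table, for which nothing was summed, r was 0.577 with a slope of 0.51. Taking only the highest row of every gene gave r = 0.543.

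**Figure D1:**
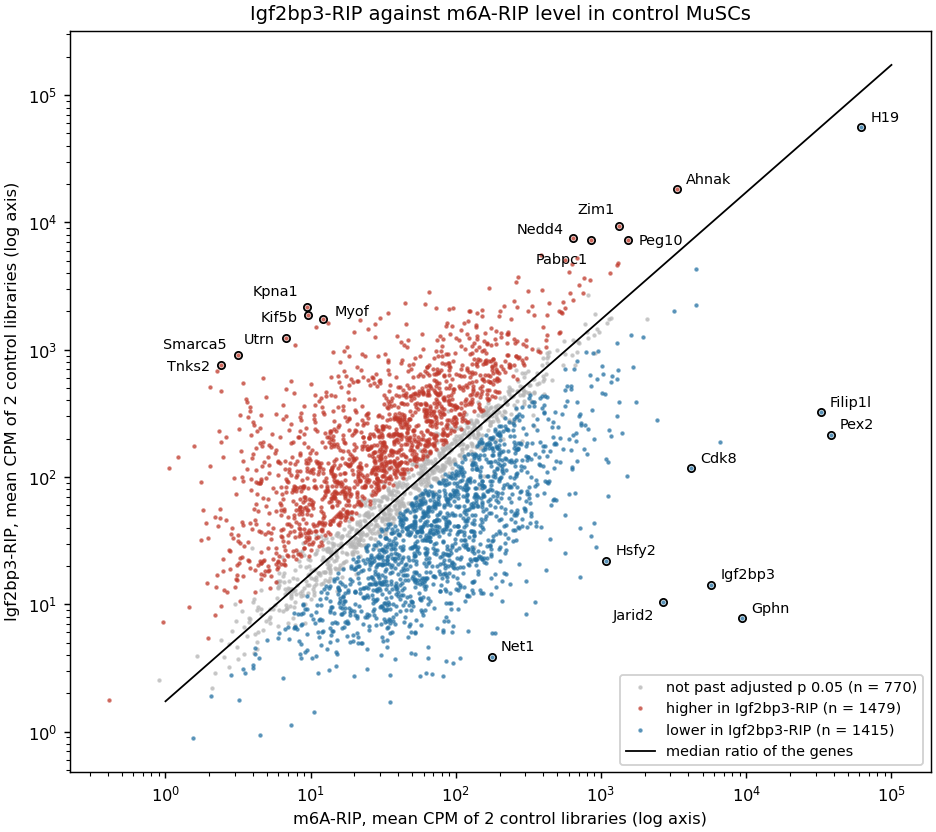
Mean CPM of the 2 control m6A-RIP libraries (x axis, log scale) against mean CPM of the 2 control Igf2bp3-RIP libraries (y axis, log scale) for the 3664 shared genes, with the line at the median ratio of 1.73. Red and blue points are genes past an adjusted p of 0.05 above (1479) and below (1415) the line. H19 stands at the top of both axes, and Pex2, Filip1l, Gphn and Igf2bp3 itself stand far under the line.

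The chance that a gene with m6A-RIP counts also carried an Igf2bp3-RIP peak climbed with its m6A-RIP level. In the lowest decile of the 9416 m6A-RIP genes, with a median of 2.93 CPM, 17.5% had an Igf2bp3-RIP peak (Wilson 95% interval 15.2 to 20.1%). In the highest decile, with a median of 309 CPM, the share was 54.6% (51.4 to 57.8%). The share reached 53.8% in the ninth decile, so the top of the range was nearly flat, and 427 of the 941 genes with the strongest m6A-RIP signal had no Igf2bp3-RIP peak. The median Igf2bp3-RIP level of the genes that had one went from 26.6 CPM in the lowest decile to 281 CPM in the highest, a smaller span than that of m6A-RIP.

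Read the other way, 94.7% (92.2 to 96.4%) of the decile of genes with the highest Igf2bp3-RIP level had an m6A-RIP row, against 63.1% (58.6 to 67.4%) of the lowest decile. Over all genes, 3664 of 4527 with Igf2bp3-RIP rows had an m6A-RIP row, and 3664 of 9416 with m6A-RIP rows had an Igf2bp3-RIP peak. The tables list different numbers of genes, so the 94.7% and the 54.6% of the highest deciles cannot be set against each other. The intervals cover counting error only, and the presence of a row was set by the peak calling over the whole table.

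**Figure D2:**
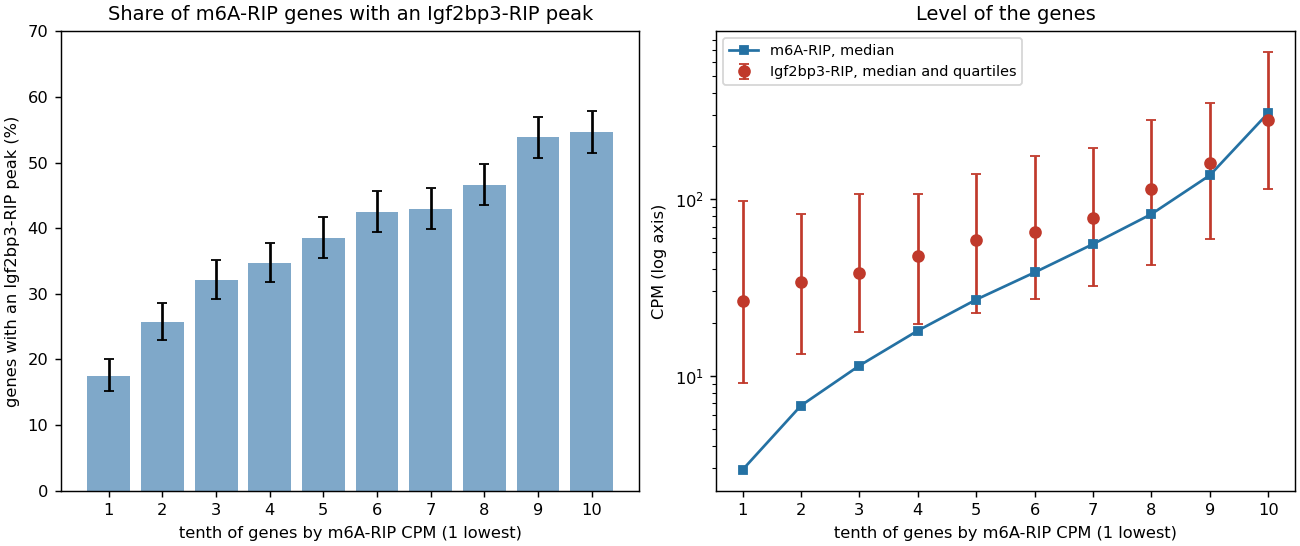
Left, share of genes with an Igf2bp3-RIP peak (%) in each decile of the 9416 m6A-RIP genes ordered by CPM, with Wilson 95% intervals. Right, median CPM (log axis) of m6A-RIP in all genes of the decile and of Igf2bp3-RIP in those with a peak, with quartiles, where the share goes from 17.5 to 54.6% and the Igf2bp3-RIP median from 26.6 to 281 CPM.

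The relation was weaker with transcript abundance held constant, and remained. Igf2bp3-RIP and m6A-RIP both followed the control input (r = 0.370 and 0.436 over 3298 genes with an input value), and with the input level held constant the correlation between the assays was 0.353, against 0.456 over the same genes without it. Within each decile of input level, the genes with m6A-RIP above the median carried an Igf2bp3-RIP peak more often than those at or below it, by between 6.20 and 20.9 percentage points. In the lowest input decile, with a median of 0.931 CPM, the shares were 33.3% and 12.4%, and in the highest, with a median of 251 CPM, they were 49.4% and 41.2%.

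The spread of single genes around this relation was wide and far larger than the spread between replicates. The Igf2bp3-RIP to m6A-RIP ratio of CPM had a median of 1.73, and the departure of a gene is given here as the log2 of its ratio relative to that median gene, with positive values where Igf2bp3-RIP was higher. By edgeR's quasi-likelihood test with an adjusted p under 0.05, 2894 of 3664 genes departed (79.0%), 1479 higher in Igf2bp3-RIP (40.4%) and 1415 lower (38.6%). Departures of 4-fold or more were called for 602 genes higher and 593 lower, and 37.2% of genes lay within 2-fold of the median gene. The libraries of the assays did not overlap relative to the median gene in 3313 genes (90.4%), so a departure as such sets no gene apart, and its size is what the following values turn on.

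The direction is relative to the median gene. With the totals of the tables alone, which moves the median of all genes by 0.79 on the log2 scale, 2001 genes were higher and 918 lower, 68.6% against 51.1% higher among the called genes. With only the highest row of each gene, the 4-fold counts were 378 higher and 365 lower, and 2474 genes were called, 2172 of them in the same direction as with summed rows and 56 in the opposite one.

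H19, the imprinted long non-coding RNA expressed from the maternal allele beside Igf2, ranked first in both assays. Its CPM was 50469.6 and 61861 in Igf2bp3-RIP and 62449 and 61174 in m6A-RIP, values that are not divided by length. H19 had no input value, so these levels could not be set against its RNA level. Its departure of -0.93 (SE 0.23, edgeR adjusted p = 0.0154) put it a little below the median gene, and with the highest row alone it was at -0.28 with an adjusted p of 0.492 by the same edgeR test. The call was also lost with the totals alone (-0.14), with a replicate block (edgeR adjusted p = 0.0732) and without m6A-RIP replicate 1 (-0.90) or replicate 2 (-0.96), so H19 is not firmly apart from the median gene. All Igf2bp3-RIP counts of H19 came from 1 peak of 2528 bp at chr7:142575588-142578115 (mm10). That peak covers the whole miR-675 hairpin at chr7:142577064-142577147 on the minus strand, the microRNA made from H19 exon RNA. The mature forms, from RefSeq (GRCm38.p6), are shown because they lie inside the strongest reader peak of the data, with the seed (bases 2 to 8) in capitals.
miR-675-5p: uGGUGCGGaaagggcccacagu
miR-675-3p: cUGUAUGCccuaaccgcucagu
The arms have different seeds. A peak over the hairpin is counted on RNA that holds it and does not tell the precursor from the long transcript.

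Of 1005 hairpins in the RefSeq table, 34 were touched by an Igf2bp3-RIP peak and 29 lay wholly inside one. After H19, the strongest was the peak named for Mir568, with 1468 and 1821 CPM in the Igf2bp3-RIP replicates, which spans 16511 bp at chr16:43626000-43642510 and so covers far more than its hairpin at chr16:43640655-43640737. There were 155 genes with Igf2bp3-RIP rows annotated as miRNA, and for 32 of them a peak touched their own hairpin. For the other 123 the name stands for a neighbouring stretch of RNA, and a miRNA name in this table is therefore not read as binding to the miRNA. Over all peaks, 80.6% touched the span of the gene they are named for.

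Besides H19, the highest Igf2bp3-RIP levels belonged to Ahnak, a giant scaffold protein gene, the imprinted genes Zim1 and Peg10, the ubiquitin ligase Nedd4 and Pabpc1, the cytoplasmic poly(A)-binding protein. Ahnak had 12318 and 24358 CPM in Igf2bp3-RIP and 3348 and 3320 CPM in m6A-RIP. Zim1, at 27.1 and 30.9 CPM in the input, had 8133 and 10509 CPM in Igf2bp3-RIP and 1314 and 1333 CPM in m6A-RIP. Peg10 had 5860 and 8691 CPM against 1502 and 1549 CPM. In all 3 the assays were both high and did not overlap, with departures of 1.67 (SE 0.37), 2.03 (SE 0.20) and 1.46 (SE 0.24) and adjusted p between 0.000608 and 0.0101 by edgeR's test. Nedd4 had 7665 and 7553 CPM in Igf2bp3-RIP against 631 and 642 CPM, and Pabpc1 had 6972 and 7566 CPM against 832 and 883 CPM. Their departures were 2.79 (SE 0.16) and 2.29 (SE 0.16). The order of these genes depended on the summing of rows, since with the highest row alone Ahnak was at 4.88, Zim1 at 3.90, Nedd4 at 3.12, Peg10 at 2.68 and Pabpc1 at 1.48. All of these but Zim1 were at or above 372 CPM in the input.

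Genes with much reader signal for little m6A-RIP signal were led by genes with many Igf2bp3-RIP peaks, 16 to 52 in all but Kpna1 of the 10 highest, and 1 or 2 low m6A-RIP rows. Tnks2, a tankyrase that marks proteins with ADP-ribose, had 718 and 787 CPM in Igf2bp3-RIP and 3.17 and 1.64 CPM in m6A-RIP, with 59.6 and 61.0 CPM in the input. Smarca5, the ATPase of ISWI chromatin remodellers, had 1142 and 685 CPM against 2.48 and 3.79 CPM. Smchd1, a chromatin protein of X inactivation and imprinting, had 737 and 611 CPM against 3.30 and 1.22 CPM. The rule that named the 10 highest required an adjusted p under 0.05 and assays that do not overlap, so neither adds support here. Tnks2, Smarca5 and Smchd1 had departures of 7.46 (SE 0.36), 7.41 (SE 0.42) and 7.38 (SE 0.51), and their m6A-RIP level was under their input level. These values sum 17 to 32 peaks, and with the highest row alone the departures were 5.78, 4.30 and 3.72. Cnot1, the scaffold of the CCR4-NOT deadenylase, had 487 and 539 CPM against 2.36 and 1.69 CPM. Kif5b, a kinesin-1 heavy chain, had 2184 and 1592 CPM against 8.80 and 10.5 CPM. Utrn, the dystrophin homologue utrophin, had 1082 and 1385 CPM over 52 peaks against 6.03 and 7.45 CPM in 2 rows. Cnot1, Kif5b and Utrn had departures of 7.18 (SE 0.23), 6.82 (SE 0.27) and 6.73 (SE 0.24). Rock1, a kinase of the actin cytoskeleton (6.84), the cytokinesis factor Ect2 (6.53) and Myof, a ferlin of myoblast fusion (6.36), completed the group, and for these 9 genes edgeR's adjusted p was between 8.02e-05 and 1.97e-04. With the highest row alone these last 6 genes were between 3.19 and 4.97.

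Kpna1, an importin alpha gene, also passed the rule with a departure of 7.05, but through 1 library. Its Igf2bp3-RIP level was 4306 CPM in replicate 1 and 35.9 CPM in replicate 2, against 8.67 and 10.3 CPM in m6A-RIP, which gave an SE of 2.27 and an edgeR adjusted p of 0.0371. Without Igf2bp3-RIP replicate 1 the departure was 1.21, and with a replicate block it was 4.63 with an edgeR adjusted p of 0.0662. It was 1 of 7 genes of 3576 that differed 10-fold or more between the Igf2bp3-RIP replicates, all of them higher in replicate 1, where they held 3.38% of the counts against 0.0350% in replicate 2. The other such genes were Itga9, Lrch3, Slc25a33, Arhgef26, Ccdc116 and Postn, named because their replicates disagree.

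**Figure D3:**
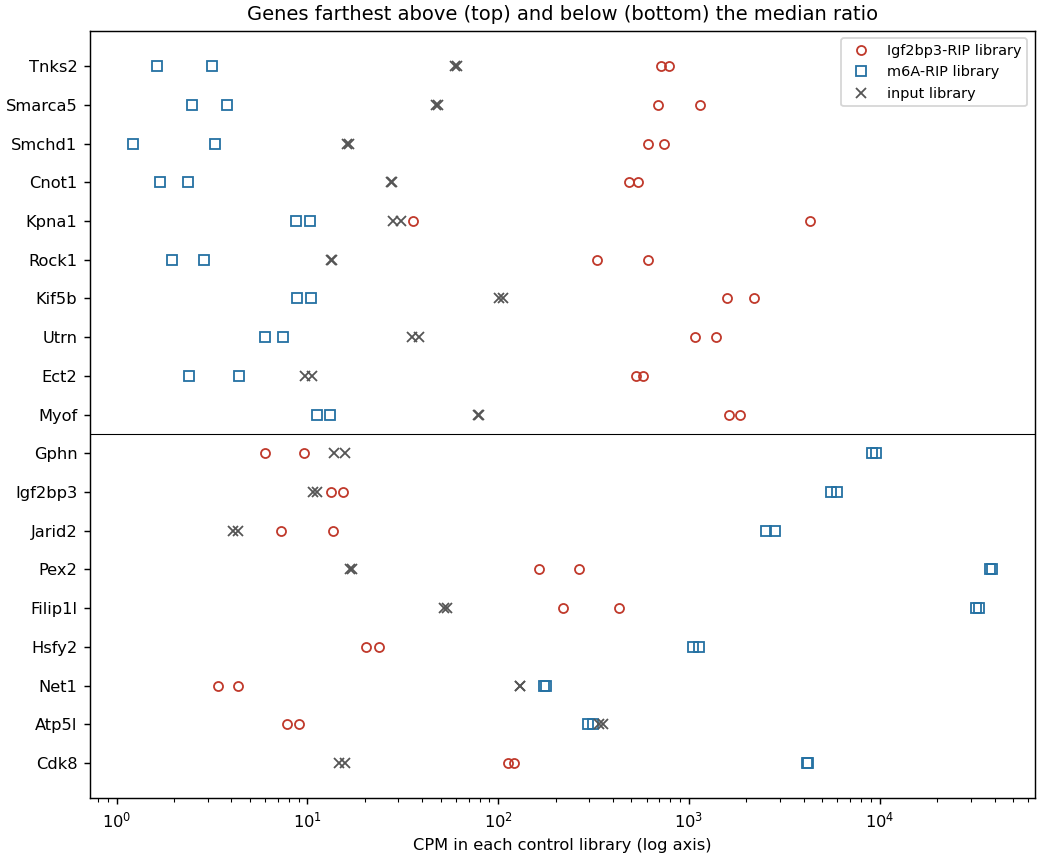
CPM (log axis) in each control library for the 10 genes with the highest departures (upper block) and 9 of the 10 with the lowest (lower block), with circles for Igf2bp3-RIP, squares for m6A-RIP and crosses for input. Replicates are farthest apart for Kpna1 in Igf2bp3-RIP (4306 and 35.9 CPM), and Hsfy2 has no input value. Some others also differ, such as Smchd1 in m6A-RIP (3.30 and 1.22 CPM) and Filip1l in Igf2bp3-RIP (428 and 219 CPM).

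Genes with much m6A-RIP signal for little reader signal included the reader's own gene. Igf2bp3 had 5557 and 5961 CPM in m6A-RIP, rank 6 of the shared genes, but 15.3 and 13.3 CPM in Igf2bp3-RIP. Its input level was 11.3 and 10.7 CPM. Igf2bp3-RIP and input CPM are scaled to different sets of genes, with a median Igf2bp3-RIP level of 2.98 times input. Igf2bp3 was at 1.30 times. Its departure was -9.45 (SE 0.24), the second lowest of all named. Gphn, the gephyrin gene, had 9168 and 9535 CPM in m6A-RIP against 9.55 and 6.02 CPM in Igf2bp3-RIP, a departure of -11.05 (SE 0.39). Jarid2, a subunit of the Polycomb complex PRC2, had 2820 and 2525 CPM against 13.7 and 7.32 CPM, a departure of -8.81 (SE 0.44). For these genes the m6A-RIP libraries were high and close together, and the Igf2bp3-RIP level was between 6.02 and 15.3 CPM. That the assays did not overlap was required by the rule that named them. In m6A-RIP 1 row held 100% of the counts of Igf2bp3, 99.9% of Gphn and 73.4% of Jarid2. With the highest row alone the departures were -9.91, -10.63 and -7.96 in this order. Where these m6A-RIP rows lie along the genes was not checked.

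Pex2, a peroxisomal ubiquitin ligase, and Filip1l, a filamin-binding protein gene, had ranks 2 and 3 of m6A-RIP among the shared genes. Their reader level was 12.7 and 6.11 times input, above the median of 2.98 times. Pex2 had 37882 and 38634 CPM in m6A-RIP and 164 and 267 CPM in Igf2bp3-RIP, with 16.7 and 17.1 CPM in the input. Filip1l had 33344 and 31821 CPM in m6A-RIP and 428 and 219 CPM in Igf2bp3-RIP, with 52.1 and 53.9 CPM in the input. Their departures were -8.26 (SE 0.40) and -7.44 (SE 0.48). Cdk8, the Mediator kinase, had a departure of -5.95 (SE 0.18), with 4195 and 4178 CPM against 121 and 113 CPM, and Hsfy2, of the heat shock factor family, one of -6.41 (SE 0.19). In m6A-RIP 1 row held 99.7% of the counts of Pex2, 99.3% of Filip1l, 96.5% of Cdk8 and 99.4% of Hsfy2. The remaining genes of the group had m6A-RIP CPM at or near their input CPM and Igf2bp3-RIP CPM far under it. Atp5l, an ATP synthase subunit, had 295 and 314 CPM in m6A-RIP, 354 and 339 CPM in the input and 9.01 and 7.79 CPM in Igf2bp3-RIP. Atp5l and Net1, a guanine nucleotide exchange factor, had departures of -5.98 (SE 0.16) and -6.34 (SE 0.19). Over these 9 genes, named of the 10 lowest, edgeR's adjusted p was between 8.02e-05 and 1.62e-04. The rule that named them required it to be under 0.05.

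The top of the m6A-RIP list carried a small set of genes with extreme values over input. At 1000 CPM or more in m6A-RIP and 100 times the input or more there were 13 genes, a cut-off chosen after the values were seen, and they held 12.5% and 12.2% of the m6A-RIP counts. Of the 13, 6 had an Igf2bp3-RIP row (Pex2, Filip1l, Gphn, Igf2bp3, Cdk8 and Jarid2), with 0.0751% and 0.0626% of the Igf2bp3-RIP counts. The median gene had an m6A-RIP level of 1.67 times its input. Without these and the replicate-discordant genes above, 9 shared genes in all, the correlation between the assays was 0.473.

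Some of the strongest signals of each assay had no counterpart row in the other, which is not a zero. Highest among m6A-RIP genes without an Igf2bp3-RIP peak were Gm8579, a predicted gene, with 9820 and 10097 CPM, the transcription factor gene Hic2 with 7765 and 6725 CPM and Axin2, a negative regulator of Wnt signalling, with 6355 and 5595 CPM. They were followed by Plekha1 (5474 and 5036 CPM) and the kinase gene Dapk3 (4215 and 4180 CPM), and the 4 with an input value had between 5.87 and 13.3 CPM there. Among Igf2bp3-RIP genes without an m6A-RIP row, the first 3, Itga9, Lrch3 and Slc25a33, rested on replicate 1, for example Itga9 with 13741 and 120 CPM. A230028O05Rik had 1308 and 1655 CPM and Prpf8, the core factor of the spliceosome, 1115 and 1406 CPM, in both cases close between replicates.

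The departure of a gene rose with the number and total width of the Igf2bp3-RIP peaks named for it. The share of a transcript that they cover was not measured. The reader level is a sum over those peaks, so they share counts. Genes with a single Igf2bp3-RIP peak (1037) had a median departure of -1.76, and 72.4% were called lower and 9.55% higher. With 5 to 8 peaks (717 genes) the median was 1.06, and with 17 or more (124 genes) it was 2.81, where 122 genes were called higher. None was lower by edgeR's test, with 0 at an unadjusted p under 0.05 and 0 by DESeq2 or limma. The median m6A-RIP level of these groups moved much less, between 39.1 and 63.5 CPM, and their median input stayed between 23.2 and 32.2 CPM. With the highest row alone the medians of the same groups still went from -0.89 to 1.47.

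From the lowest to the highest quartile group of departures the median total peak width went from 366 to 3052 bp and the median gene span from 22.7 to 57.1 kb, while the median Igf2bp3-RIP level per kb of peak went only from 64.4 to 80.8 CPM. Across genes the reader level had an r of 0.805 with total peak width, whereas the m6A-RIP level had an r of 0.144 with it. Divided by peak width, the Igf2bp3-RIP level had an r of 0.595 with the m6A-RIP level, and with the numbers of rows of both tables held constant r was 0.601. The median input was 30.2, 25.3, 24.5 and 27.4 CPM in these groups in turn, and the correlation of departure with input was -0.0254 over 3298 genes. In the number of m6A-RIP rows the order was the opposite at the start. Genes with 1 m6A-RIP row (1234) had a median departure of 0.81, those with 4 rows (375) one of -0.65, and those with 6 or more (210) one of -0.07.

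**Figure D4:**
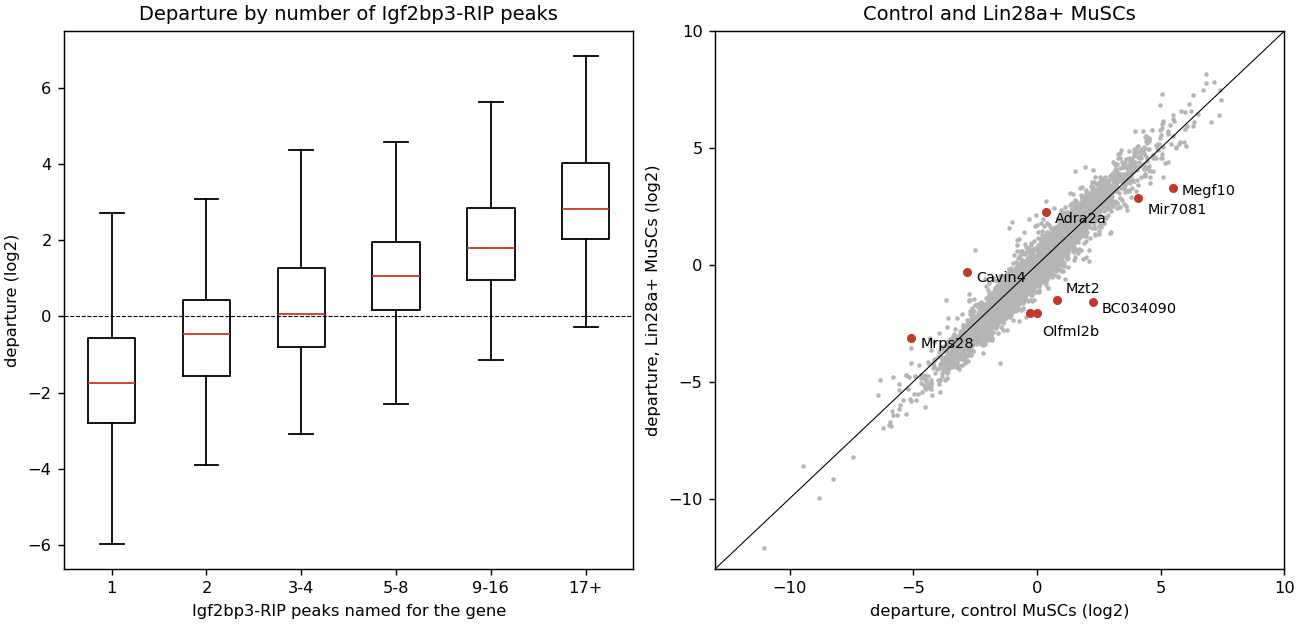
Left, departure (log2, median gene at 0) by the number of Igf2bp3-RIP peaks named for a gene, with boxes for quartiles, lines for medians and whiskers to the farthest gene within 1.5 box lengths. Right, departure in control MuSCs against that in Lin28a+ MuSCs, with the diagonal and, in red, the 9 genes whose ratio differed between the cells, 8 of them labelled. The medians climb from -1.76 to 2.81, and the points follow the diagonal.

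The genes of the m6A pathway and the known Igf2bp targets were spread on both sides of the median gene. Of 12 readers in either table, 10 were shared, with 4 called higher, 5 lower and a median departure of -0.70, against 40.4% and 38.6% of all genes. Fmr1, the fragile X RNA-binding protein, was highest at 3.93 (SE 0.16), with 664 and 553 CPM in Igf2bp3-RIP and 22.0 and 24.1 CPM in m6A-RIP. Igf2bp2, the paralogue of the reader, had 364 and 436 CPM against 90.3 and 87.8 CPM, a departure of 1.38 (SE 0.14), and so differed in direction from Igf2bp3. Among the YTH readers, Ythdf1 (-2.14), Ythdf2 (-1.40) and the nuclear Ythdc1 (-1.17) were lower and Ythdf3 (0.47) higher, the last 2 with edgeR adjusted p of 0.0439 and 0.0455. With the highest row alone Ythdc1 was at 0.67 and was not called, and Ythdf3 was not called with a replicate block (edgeR adjusted p = 0.0582) or without either m6A-RIP library (0.45 and 0.49). The splicing regulator Hnrnpa2b1 was at -2.30, the RNA-binding proteins Elavl1 and Prrc2a at 0.90 and -0.23. Elavl1 lost its call without m6A-RIP replicate 2 (0.82), and Prrc2a was not called. Hnrnpc had an m6A-RIP row only and Ythdc2 Igf2bp3-RIP rows only.

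Of 8 shared writers and erasers 1 was higher and 5 lower, 12.5% and 62.5% against 40.4% and 38.6% of all genes, with a median of -1.33. Zc3h13, a scaffold of the writer complex, had 38.7 and 18.9 CPM in Igf2bp3-RIP and 173 and 171 CPM in m6A-RIP, a departure of -3.39 (SE 0.38). Mettl14, the partner of the catalytic subunit, was the one higher at 0.84 (SE 0.19), a call lost without m6A-RIP replicate 1 (0.92) or 2 (0.76), while Mettl3, Mettl16 and Fto had m6A-RIP rows only. The 2 that did not pass the test, Virma and Cbll1, were at -0.20 and -0.50.

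Of 12 classic Igf2bp targets in either table, 9 were shared, with 4 higher and 3 lower (44.4% and 33.3%), close to the 40.4% and 38.6% of all genes, and a median of -0.16. Igf2, for which the family is named, had 2915 and 2796 CPM in m6A-RIP and 862 and 902 CPM in the input but no Igf2bp3-RIP row, and Actb and Btrc likewise had m6A-RIP rows only. Myc, the proto-oncogene transcription factor, had 36.9 and 21.5 CPM in Igf2bp3-RIP and 92.6 and 96.0 CPM in m6A-RIP, a departure of -2.50 (SE 0.29). Of the D-type cyclin genes in this list, Ccnd1 was at -2.74 (SE 0.25), with 85.4 and 135 CPM against 433 and 421 CPM, and Ccnd3 was at -0.16 and not called. Ccnd2, from the cell cycle list and named after its values were seen, was at 3.06, with 4195 and 6916 CPM in Igf2bp3-RIP and 376 and 393 CPM in m6A-RIP. Cdk6 (3.53), Ccng1 (2.99) and Cd44 (2.44) were higher, and Hmga2 was at -0.31 with an edgeR adjusted p of 0.448. Cd44 differed between the Igf2bp3-RIP replicates, at 619 and 235 CPM.

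Besides Igf2bp3 itself, described above at -9.45, the followed-up genes named here had departures between -0.45 and 1.27. Fancm, the Fanconi anaemia translocase, had 43.2 and 43.0 CPM in Igf2bp3-RIP and 10.4 and 10.2 CPM in m6A-RIP, a departure of 1.27 (SE 0.15). Bard1, the partner of Brca1, had 38.6 and 48.8 CPM against 12.1 and 10.9 CPM, a departure of 1.14 (SE 0.19) that was 0.21 and not called with the highest row alone. Both passed edgeR's test, with adjusted p of 0.00115 and 0.00399. Usp1, the deubiquitinase of Fancd2, had 295 and 187 CPM against 107 and 98.1 CPM and was at 0.44 (SE 0.24, edgeR adjusted p = 0.155). Fbxw7, a ubiquitin ligase subunit, had 55.6 and 69.7 CPM against 51.5 and 47.4 CPM and was at -0.45 (SE 0.16, edgeR adjusted p = 0.0558). Twist2 was not analysed here.

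Among the lists with at least 5 shared genes, giant cytoskeletal genes had the highest median with summed rows. Of 22 shared genes 19 were called higher and 2 lower (86.4% and 9.09%, against 40.4% and 38.6% of all genes), with a median departure of 2.36 and a median of 24 Igf2bp3-RIP peaks against 3 over all shared genes. Utrn led them, and Syne1, a nesprin, was lowest at -1.14 (SE 0.16), a call lost with the totals alone (-0.35). With the highest row alone their median was 1.18, under the 1.31 of cell cycle and mitosis genes. Cell cycle and mitosis genes had 22 higher and 8 lower of 35 (62.9% and 22.9%) with a median of 1.36, from Ect2 to Ccnd1. Stress granule proteins had 13 higher and 5 lower of 21 (61.9% and 23.8%, median 0.97), with the RNA-binding protein gene Taf15 lowest at -3.85. Myogenic regulators had 9 higher and 4 lower of 13 (69.2% and 30.8%, median 1.18). In this group Tcf4, an E protein, was highest at 3.26, with 1334 and 1228 CPM in Igf2bp3-RIP against 75.5 and 79.2 CPM in m6A-RIP.

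Against 40.4% higher and 38.6% lower over all genes, chromatin modifiers had 37 higher and 16 lower of 67 (55.2% and 23.9%, median 0.70), from Smarca5 to the deacetylase gene Hdac7 at -4.92. DNA repair genes had 24 higher and 13 lower of 46 (52.2% and 28.3%, median 0.62), with the remodeller gene Smarcad1 at 4.44 and Lig4, the ligase of end joining, at -2.49, which was -0.26 and not called with the highest row alone. The medians of matricellular and matrix remodelling genes (9 higher and 6 lower of 17, from Lamb1 at 2.70 to Ltbp3 at -3.92) and of translation factors (8 and 6 of 16, from Eif2s3x at 3.73 to Eif3b at -3.60) were 0.59 and 0.46. Closer to the shares of all genes, splicing factors (12 and 10 of 34, Sf3b1 highest at 4.70), collagens (4 and 3 of 9, from Col12a1 at 3.33, which was 0.03 and not called with the highest row alone, to Col18a1 at -2.38), the nuclear-encoded respiratory chain (3 and 3 of 7, Cox7a2 highest at 2.14) and numbered zinc finger genes (32 and 36 of 84, from Zfp148 at 2.85 to Zfp469 at -5.57) had medians of -0.12, -0.08, -0.0022 and -0.34 in this order.

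Immediate early genes were the group lowest in median among those with at least 5 shared genes. Of 14 shared genes 11 were called lower (78.6%, against 38.6% of all genes) and none higher by edgeR's test (40.4% of all genes), with 0 higher at an unadjusted p under 0.05 and 0 by DESeq2 or limma. The median was -1.93. A further 12 had m6A-RIP rows only, 44.4% of those in either table against 56.0% of all genes. Dusp1, a MAP kinase phosphatase, had 60.6 and 22.0 CPM in Igf2bp3-RIP and 214 and 213 CPM in m6A-RIP, a departure of -3.18 (SE 0.51). Fosl1, an AP-1 subunit, had the highest value at 0.42 (SE 0.34) and was not called. The shared members had a median of 2 Igf2bp3-RIP peaks.

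**Figure D5:**
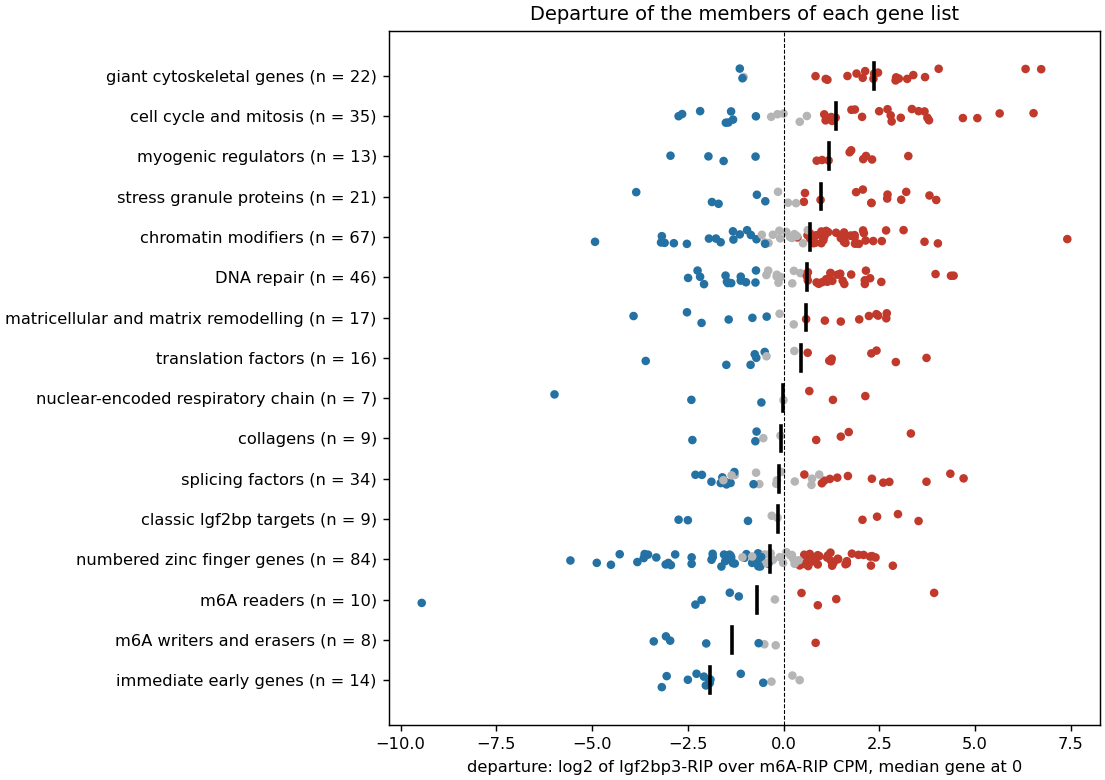
Departure (log2, median gene at 0) of each shared member of the 16 gene lists with at least 5 shared genes. Red and blue points are called higher and lower in Igf2bp3-RIP, grey points are not called, and black bars are list medians, which run from 2.36 for giant cytoskeletal genes to -1.93 for immediate early genes.

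Several groups were found in m6A-RIP and hardly at all in Igf2bp3-RIP. Against 56.0% of all 10279 genes, m6A-RIP rows only were held by 33 of 38 cytosolic ribosomal protein genes (86.8%), 50 of 58 nuclear-encoded respiratory chain genes (86.2%), 22 of 26 sarcomere genes (84.6%) and 18 of 19 replication-dependent histone genes (94.7%). Of the few shared members, Rps13 was at 3.35, Ttn, the titin gene, was at 2.33 and the skeletal actin gene Acta1 at -5.31, and the histone gene H4c17 was at 0.39 and not called. Replication-dependent histone mRNAs have no poly(A) tail, and their rows were in the assay labelled as polyA RNA. Glycolysis genes (10 of 15) and named long non-coding RNAs (8 of 12) were nearer to the share of all genes, with m6A-RIP rows only for 66.7% each. Their shared members included the hexokinase genes Hk1 at 1.72 and Hk2 at 0.97 (not called without m6A-RIP replicate 1 or 2, at 0.96 and 0.97) and the long non-coding RNA Airn at 3.06. None of 13 mitochondrially encoded mRNAs had a row in either table. In contrast no giant cytoskeletal gene had m6A-RIP rows alone, and 87.0% of the chromatin modifiers were shared, against 35.6% of all genes.

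The departures were nearly the same in libraries the comparison had not used. Both sets of cells were counted over the same peaks and rows, with the same antibodies, so part of this likeness was built in. In Lin28a+ MuSCs the 2 Igf2bp3-RIP and 2 m6A-RIP libraries gave a median log2 ratio of 1.22 and departures with an r of 0.971 to those of the control over 3664 genes, with no sample in common. Of the 2894 genes called in control, 2847 (98.4%) had the same direction in Lin28a+ MuSCs, and 2652 were also called there in that direction. Gphn was at -12.13, Igf2bp3 at -8.58, Tnks2 at 7.06 and H19 at -1.33 in Lin28a+ MuSCs. Kpna1 was at 6.11 there.

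Tested directly, the ratio of the assays differed between Lin28a+ and control MuSCs in 9 of 3664 genes (0.246%) by edgeR's interaction test, 3 higher and 6 lower in Lin28a+ MuSCs, and 846 genes had an unadjusted p under 0.05. Cavin4, a caveolar protein of muscle, was at -2.84 in control and -0.28 in Lin28a+ MuSCs, and BC034090 at 2.26 and -1.59. In both the larger difference was in m6A-RIP. It went from 7.32 and 5.81 to 57.4 and 54.1 CPM for BC034090, where Igf2bp3-RIP was 49.7 and 58.9 CPM against 46.2 and 40.5 CPM. For Cavin4 it went from 215 and 218 to 38.0 and 34.6 CPM, and Igf2bp3-RIP was 50.7 and 54.3 CPM against 66.3 and 73.2 CPM. The count depended on single libraries. It was 510 without Lin28a+ Igf2bp3-RIP replicate 1, 37 without control Igf2bp3-RIP replicate 1, 4 without Lin28a+ Igf2bp3-RIP replicate 2, 2 without either control m6A-RIP library and 2 or 1 without either Lin28a+ m6A-RIP library. DESeq2 called 394. In bulk libraries fewer cells of a type and less RNA per cell cannot be told apart.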

How the data were processed

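Control MuSC libraries of Igf2bp3-RIP, m6A-RIP and input (2 each) were used, with the Lin28a+ libraries as a second set. Per the labels and methods, reads were aligned with Hisat2 2.0.4 and peaks called with MACS2, and the notes name both GRCh38 and mm10. The counter, pooling and peak threshold are not given in the sources used here. For the RIP libraries the authors deposited integer counts in each peak or row, with peak widths for Igf2bp3-RIP, and estimated counts per gene for the input, with decimals in 93.1% of genes, which were used only as CPM. Counts were summed by gene identifier.

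edgeR 4.0.16 (glmQLFit and glmQLFTest in R 4.3.3, filterByExpr, Benjamini-Hochberg adjusted p under 0.05) compared the assays with table totals as library sizes, shifted by the median log2 ratio of 0.79. All 3664 shared genes passed the filter. The common coefficient of variation was 24.7% in Igf2bp3-RIP and 5.02% in m6A-RIP, so the shared estimate (17.6%) mixes a noisier and a tighter assay. The interaction fit held 8 libraries. Tests were checked on simulated data.

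Replicate numbers are shared between assays, but with 2 pairs and no label of a batch they were not taken as pairs. For the input, 2 columns headed as m6A-RIP were not used, and the 2 Lin28a+ m6A-RIP columns, which share a name, were assigned without a number. The members and gene lists were chosen with earlier results of these data known. Genes named are the 10 highest and 10 lowest departures with an adjusted p under 0.05, replicates that do not overlap and at least 20 CPM in 1 assay. Also named are the 6 highest of each assay, the 5 highest without a row in the other table, the readers, the classic targets, the genes the study followed up and the ends of each other list. Alternatives were other scalings, filters, DESeq2 1.42.0, limma 3.58.1, the highest row per gene, a replicate block and each library left out. Some genes that meet the rule are not reported here.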

Additional observations from a re-analysis of the deposited data

Results flagged for a closer look

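For 9 genes, 8 of them named here, the Igf2bp3-RIP to m6A-RIP ratio differed between Lin28a+ and control MuSCs by the interaction term of edgeR's quasi-likelihood test. The log2 difference, Lin28a+ minus control, was -3.84 for BC034090, 2.56 for Cavin4, -2.04 for Olfml2b, -2.31 for Mzt2, -1.22 for Mir7081, -2.20 for Megf10, 1.90 for Adra2a and 1.96 for Mrps28. In Megf10, a receptor of satellite cells, both assays contributed, with 177 and 232 CPM in control Igf2bp3-RIP against 83.4 and 99.5 CPM in Lin28a+ MuSCs and 2.42 and 2.81 CPM in control m6A-RIP against 4.30 and 3.66 CPM. In Mrps28 the m6A-RIP level was 33.6 and 36.9 CPM against 41.3 and 38.4 CPM, and the Igf2bp3-RIP level was 1.41 and 2.03 CPM against 10.6 and 10.9 CPM. For the other genes named the values in each library did not overlap between the cells in at least 1 assay. Of the genes named, only BC034090 kept its call in every fit that left 1 library out, while the direction of each difference stayed. With 2 libraries per group no library could be tested as an outlier.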

How the results depend on the processing

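The 2894 departing genes and their directions (1479 higher, 1415 lower) stayed within 1.5 times under TMM factors, DESeq2, limma (chosen after seeing the data), no filter, 10 counts in every library and the replicate block. Exceptions were the totals without a shift, with 918 lower and 1034 and 310 by 4-fold or more higher and lower, and the highest row of each gene, with 378 and 365. The replicate block gave 2874 calls (1467 higher, 1407 lower), and deviations of equal numbers had an r of 0.012 across genes. No paired interaction fit was possible because the Lin28a+ m6A-RIP columns carry no number. Leaving out 1 library gave 2454 to 3357 calls, more without an Igf2bp3-RIP library, since the lone one is then assumed to vary like m6A-RIP.

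The correlation of 0.463 was 0.461 with 10 counts in every library, 0.543 for the highest row, 0.455 without the 10 highest genes of each assay and 0.457 to 0.464 without a library. Chosen after seeing the data, it was 0.490 over 2546 genes whose every peak touches its gene and 0.473 without the doubted genes. With Igf2bp3-RIP genes counted from 100 counts, 12.6% of the lowest decile had one. The 9 interaction calls were 28 with TMM, 394 with DESeq2 and 1 to 510 without a library.

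Of 77 named genes, sign changed for Ccnd3 (0.63 without a shift, 0.026 highest row, -0.50 to 0.14 without a library), Hmga2 (0.48, 0.56, -0.98 to 0.18), Prrc2a (0.56 without a shift, -0.48 to 0.0060 without a library), Fbxw7 (0.34 without a shift), Ythdc1 (0.67 highest row) and Fosl1 (-0.014 to 0.76 without a library). The cause was not tested. Over 12 alternatives these 77 genes gave 924 values, of which 882 kept direction and side of the threshold, 19 lost the call, 12 gained one and 11 changed sign. The replicate block ended the calls of H19, Kpna1 and Ythdf3 alone. Of the 16 gene lists plotted, 8 had a median above 0, and 8 to 12 did under the alternatives. Igf2bp3-RIP replicate 1 was the shallowest RIP library used, with 9215355 counts.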
